A study of Mus musculus with 6 samples.

Results

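*Notch1*, *Notch2*, *Notch3* and *Notch4* encode the 4 receptors of the Notch pathway, *Jag1*, *Jag2* and *Dll4* encode 3 of its ligands, and *Hes1*, *Hey1* and *Heyl* are 3 of its target genes. These 10 genes were chosen by symbol, out of 26251 genes with a UMI in any library, and were followed across the cell types of the fetal mouse gonad. The receptors and ligands sit in the membranes of neighbouring cells. When a ligand binds, the receptor is cut by ADAM10 and then by gamma-secretase, and its intracellular part joins RBPJ in the nucleus and switches on Hes and Hey genes, which encode transcriptional repressors. In the fetal testis the pathway is known for its part in artery formation, in pericytes and in keeping interstitial progenitors from becoming Leydig cells.

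The libraries were 10x Genomics single cell preparations of gonads at E15.5 from mice that lack both *Amh* and *Inhbb* (*Amh* -/-; *Inhbb* -/-, called dKO XY) and from XY and XX mice with both genes intact (*Amh*+/+; *Inhbb*+/+, called control XY and control XX), with 2 libraries in each of the 3 groups. *Amh* encodes anti-Müllerian hormone, and *Inhbb* encodes the subunit of activin B. The germline null alleles act in every cell of the gonad, and no dKO XX gonads were analysed here. Both gonads of an animal were dissociated together, and the cells were frozen and thawed before capture.

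The 6 libraries held 39350 cells after filtering, 4781 to 8569 per library, with 118475468 to 221675316 UMIs. *Amh* in supporting cells stood at 2034 and 1915 UMIs per 1000000 UMIs of the sum (CPM) for control XY and 17.9 and 15.6 CPM for dKO XY, above the 1.34 and 1.42 CPM of control XX. *Inhbb* in the same cells was at 161 and 185 CPM for control XY, 41.6 and 50.7 for dKO XY and 37.4 and 25.4 for control XX, so it was lower in both dKO XY libraries but not absent. Which part of each gene the null alleles remove is not given in the sources used here, so what the remaining UMIs of either gene stand for was not tested. The dKO XY libraries had more barcodes with at least 25% mitochondrial UMIs, 24.4% and 28.3%, than the other libraries, 2.22% to 9.35%, and these barcodes were removed. In all, 351 cells (0.892%) carried a barcode sequence found in more than 1 library. Levels are CPM in the sum of all cells of a type in a library, given in the order replicate 1, replicate 2, and compare a gene only with itself. They cover transcripts of the whole sum, so a change in the makeup of a cell class and a change within its cells cannot be told apart from the sum alone. A gene was called where edgeR's quasi-likelihood test, adjusted over all genes tested in that comparison by Benjamini-Hochberg, gave p under 0.05. Differences between cell types are descriptions with no test. Statements that the libraries of groups did or did not overlap are descriptions too. The share of all genes without such an overlap was not taken. With 2 libraries per group a two-sided exact permutation test of 1 gene cannot go below p = 0.333, so each test borrows its spread from all genes. The spread within a group rests on at most 2 libraries and is pooled over the groups in a fit.

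In control XY, vascular cells held the highest level of 9 of the 10 genes. *Notch1*, *Notch4*, *Jag2*, *Dll4* and *Hey1* were highest in endothelial cells, and *Notch3*, *Jag1*, *Hes1* and *Heyl* in pericytes, the contractile cells that wrap small vessels.

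**Figure D1:**
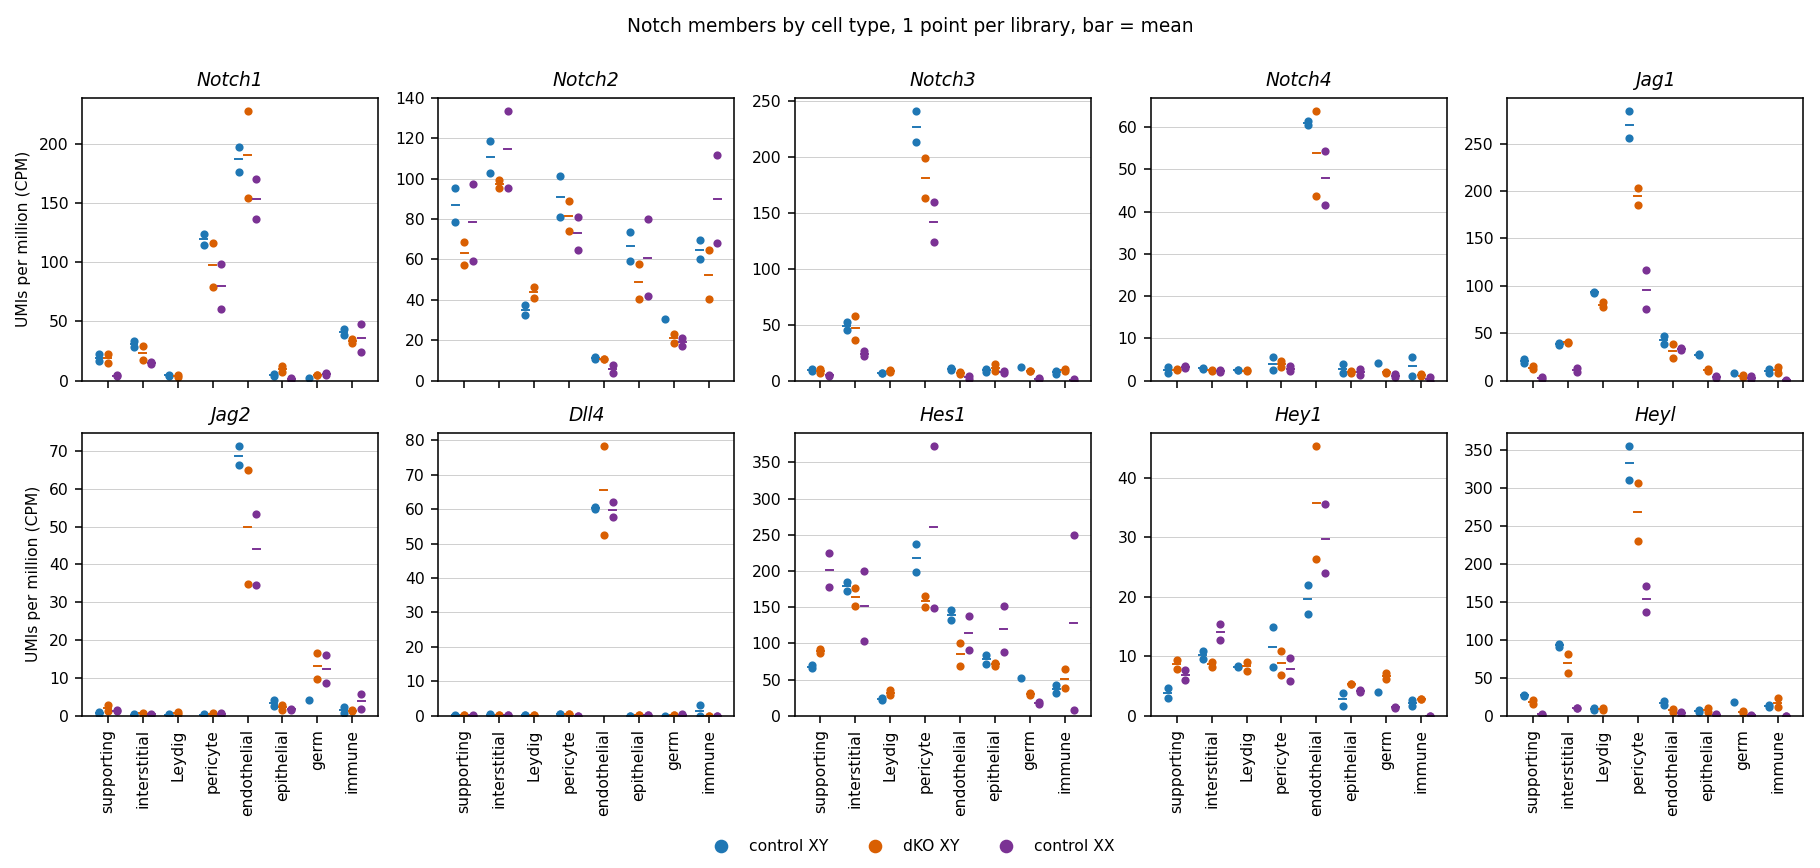
Level of each of the 10 genes in CPM (y axis, each panel on its own linear scale) in 8 cell types (x axis). Each point is a library and each bar the mean of a group. *Notch4*, *Jag2* and *Dll4* stand at 34.5 CPM or more in every endothelial sum, and the *Heyl* points of pericytes, 137 to 354 CPM, lie above all others of that gene.

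Among the receptors, *Notch1* (chr2:26457903-26516663, minus strand, up to 34 exons, mm10) stood at 187 ± 15 CPM (SD, n = 2) in control XY endothelial cells. Pericytes followed at 119 ± 6.4 CPM, immune cells at 41 ± 3.5, interstitial cells at 30.7 ± 3.4 and supporting cells, the Sertoli or granulosa lineage, at 19 ± 4.2. The libraries of these types did not overlap, while the lowest types, epithelial and Leydig cells, overlapped. *Notch3* (chr17:32120820-32166852, minus strand) measured 227 ± 20 CPM for control XY pericytes, 49 ± 5 in interstitial cells and 10.2 ± 1.1 in endothelial cells. Supporting cells had a lower mean but overlapped endothelial cells, and supporting, epithelial, immune and Leydig cells overlapped.

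*Notch2* (chr3:98013527-98150361, plus strand) was the receptor with the opposite distribution. It was highest in interstitial cells, 111 ± 11 CPM, lower in pericytes (91 ± 14) and supporting cells (87 ± 12), whose libraries overlapped, and lowest in endothelial cells at 11.2 ± 0.76 CPM. *Notch4* (chr17:34564268-34588503, plus strand) was an endothelial gene in every library, with 60.4 and 61.3 CPM for control XY, 43.8 and 63.8 for dKO XY and 54.3 and 41.6 for control XX. The dKO XY range overlapped both controls, and both control XX libraries lay below both control XY libraries, a difference that was not called. With every cell thinned to 5000 UMIs, 19.7% to 25.2% of endothelial cells and 0.58% to 1.71% of interstitial cells held a *Notch4* UMI. The interstitial share serves as the background for this endothelial gene. Unthinned, the endothelial share was 66.7% to 74.6%.

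Of the ligands, *Dll4* (chr2:119325784-119335962, plus strand), the Delta-like ligand of sprouting and arterial endothelium, stayed between 52.6 and 78.2 CPM in the 6 endothelial sums and at or under 0.318 CPM in supporting and 0.362 CPM in interstitial cells. *Jag2* (chr12:112907819-112929776, minus strand) also led in endothelial cells, at 66.3 and 71.2 CPM for control XY, 34.9 and 64.9 for dKO XY and 53.4 and 34.5 for control XX. In control XX the next type was germ cells, with 16 and 8.61 CPM of *Jag2*. *Jag1* (chr2:137081456-137116644, minus strand) was found in every cell type. In control XY it stood at 270 ± 20 CPM in pericytes and at 93 ± 0.42 in Leydig cells, the androgen-producing cells of the testis. Endothelial (43 ± 6.1) and interstitial cells (38.9 ± 1.4) overlapped, and supporting cells held 20.9 ± 3.2 CPM.

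The targets were spread differently from each other. *Heyl* (chr4:123233556-123249875, plus strand) went from 332 ± 31 CPM for control XY pericytes to 92.5 ± 3.4 in interstitial, 26.6 ± 1.4 in supporting, 16.9 ± 3.2 in endothelial and 12.8 ± 1.1 in immune cells, and the libraries of these types did not overlap. *Hes1* (chr16:30064384-30067796, plus strand) was broad, at 218 ± 28 CPM in pericytes, 179 ± 9.2 in interstitial, 140 ± 9.7 in endothelial, 68 ± 2.1 in supporting and 22.9 ± 1.9 in Leydig cells. *Hey1* (chr3:8663359-8667256, minus strand) went from 19.5 ± 3.4 CPM in endothelial cells to 8.22 ± 0.097 in Leydig and 3.78 ± 1.2 in supporting cells. In control XX the order of *Hes1* changed: supporting cells (201 ± 33 CPM) stood between pericytes (261 ± 160) and interstitial cells (152 ± 69), and all 3 overlapped.

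Supporting cells, the lineage that becomes Sertoli cells in the testis and granulosa cells in the ovary, differed between control XX and control XY in most of these genes. Of 9 genes tested, 6 were called, where 48.9% of all 15958 genes were (25.2% higher, 23.7% lower for control XX). *Heyl*, *Jag1*, *Notch1* and *Notch3* were lower in control XX, and *Hes1* and *Hey1* were higher. The median log2 fold change was -0.21 over the 9 genes and 0.04 over all genes.

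*Heyl* stood at 27.6 and 25.6 CPM for control XY, 14.9 and 21 for dKO XY and 1.13 and 2.17 for control XX supporting cells. The control XX libraries lay far under the others, which did not overlap with them (log2 fold change -4.17, SE 0.30, adjusted p = 2.48e-06). *Jag1* measured 23.1 and 18.6 CPM for control XY, 14.9 and 12.2 for dKO XY and 1.82 and 3.23 for control XX. Its control XX level was lower by -3.16 on the log2 scale (SE 0.26, adjusted p = 7.05e-06). *Notch1* read 16.1 and 22 CPM for control XY, 14.9 and 22.7 for dKO XY and 4.49 and 3.95 for control XX (log2 fold change of control XX -2.22, SE 0.24, adjusted p = 4.32e-05). The XY groups overlapped for *Notch1* and not for *Jag1*.

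*Hes1* ran the other way, with 66.5 and 69.5 CPM for control XY, 86.5 and 92 for dKO XY and 178 and 225 for control XX. No group overlapped another. The log2 fold change of control XX was 1.51 (SE 0.14, adjusted p = 1.3e-05). A list of 8 immediate-early genes, which respond within minutes to stimulation, was looked at after the data were seen. Its summed level in supporting cells was 5321 and 5102 CPM for control XY, 7571 and 2813 for dKO XY and 10247 and 10789 for control XX, so it moved with *Hes1* between the controls and its part in the *Hes1* difference was not tested. In dKO XY 2, where that sum was lowest, *Hes1* was at 92 CPM.

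*Notch3* stood at 8.28 and 10.2 CPM for control XY, 7.16 and 10 for dKO XY and 4.2 and 5.2 for control XX supporting cells (log2 fold change of control XX -1.05, SE 0.23, adjusted p = 0.00396). A 7-gene pericyte list summed to 63.3 and 72.9 CPM for control XY, 36 and 36.7 for dKO XY and 10 and 14.5 for control XX supporting cells (*Higd1b* at 0 for dKO XY 2 and control XX 1), and an 8-gene interstitial list, with all 8 detected, to 1178 and 1328, 679 and 602, and 546 and 767 CPM. After the data were seen, the test was repeated in supporting cells low in *Tcf21* and *Sycp3*, an interstitial and a germ cell marker. There the interstitial list was at 283 and 443 CPM for control XY and 484 and 530 for control XX, and the pericyte list at 51.3 and 61.1 CPM for control XY, 34.1 and 33.7 for dKO XY and 9.28 and 8.54 for control XX. *Notch3* was at 3.28 and 3.67 CPM for control XY and 4.09 and 4.12 for control XX of these cells, and its call was lost with the sign turned (0.14, adjusted p = 0.713). *Heyl*, *Jag1*, *Notch1*, *Hes1* and *Hey1* kept their calls in those cells, at -3.75, -3.06, -2.39, 1.84 and 1.82 on the log2 scale. The pericyte list still moved in the direction of *Heyl*, *Jag1* and *Notch1* there, and its part in their differences was not tested. Without control XY 2, *Notch3* was at -0.88 (adjusted p = 0.0501).

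**Figure D2:**
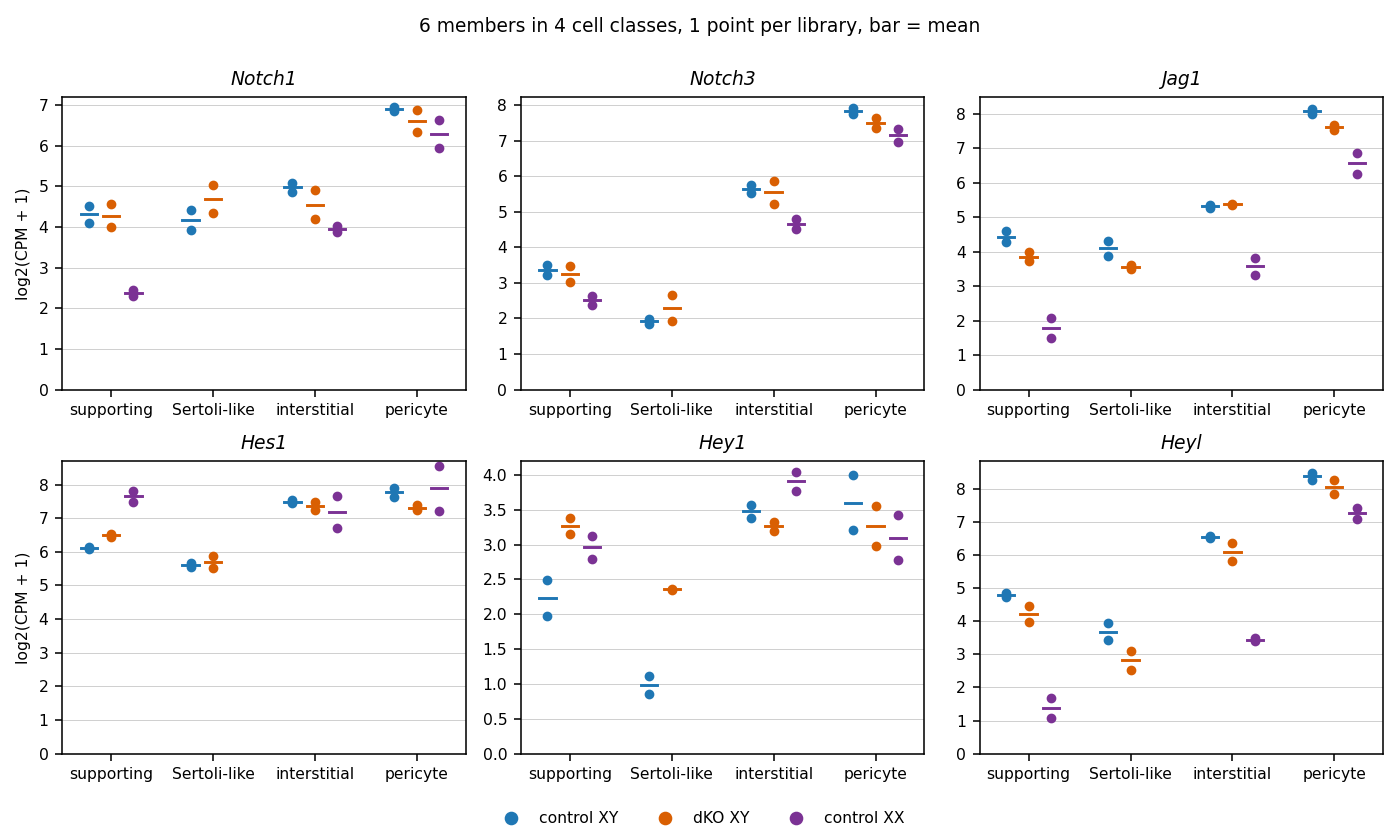
Level of 6 of the genes as log2(CPM + 1) (y axis) in supporting, Sertoli-like, interstitial and pericyte sums (x axis), with a point per library and a bar at the mean of each group. The control XX points of *Heyl* and *Jag1* lie under all XY points in supporting, interstitial and pericyte sums, and *Hes1* in supporting cells lies highest in control XX.

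The dKO XY supporting cells differed from control XY in 1 of the 9 genes, *Hey1*, where 16.7% of all genes tested were called (9.89% higher, 6.83% lower for dKO XY). *Hey1* read 4.63 and 2.93 CPM for control XY, 7.9 and 9.44 for dKO XY and 5.95 and 7.74 for control XX. Both dKO XY libraries were above both control XY libraries (log2 fold change 1.26, SE 0.26, adjusted p = 0.00968), and without control XY 2 the call was lost (0.91, adjusted p = 0.120). Control XX supporting cells were higher than control XY in *Hey1* by 0.85 (SE 0.26, adjusted p = 0.0231), a call lost without control XY 2 (0.50, adjusted p = 0.243) or control XX 2 (0.68, adjusted p = 0.0889). In cells low in *Tcf21* and *Sycp3* the control XY level was 1.72 and 1.72 CPM against 7.96 and 9.56 for dKO XY, a log2 fold change of 2.32 (adjusted p = 0.000164). *Hes1*, 0.40 on the log2 scale with adjusted p = 0.0770 in all supporting cells, was called in the cells low in *Tcf21* and *Sycp3* (0.64, adjusted p = 0.0138), at 49.1 and 58.4 CPM for control XY and 82.4 and 88.7 for dKO XY. *Notch3* was also called there, at 0.98 (adjusted p = 0.0351). *Jag2* had a log2 fold change of 1.30 (SE 0.50, adjusted p = 0.116), *Jag1* of -0.61 (0.116), *Heyl* of -0.56 (0.168) and *Notch2* of -0.46 (0.189), none of them called. For dKO XY against control XY, *Jag2* was at 1.42 in Sertoli-like, 1.10 in interstitial, 0.93 in Leydig and -0.49 in endothelial sums, also not called.

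Set against control XX, the dKO XY supporting cells differed in 5 of the 9 genes, where 40.9% of all genes did (21.3% higher, 19.6% lower for dKO XY). *Heyl* was higher in dKO XY by 3.61 on the log2 scale (SE 0.29, adjusted p = 9.04e-06), *Jag1* by 2.55 (SE 0.25, adjusted p = 3.85e-05), *Notch1* by 2.20 (SE 0.23, adjusted p = 5.63e-05) and *Notch3* by 0.94 (SE 0.22, adjusted p = 0.0067). *Hes1* was lower by -1.11 (SE 0.13, adjusted p = 0.000135). In both dKO XY libraries the pericyte list was also higher, and the immediate-early list lower, than in both control XX libraries. The part of these lists in the differences was not tested. Without dKO XY 2, *Notch3* was at 0.66 (adjusted p = 0.0523). The 3 supporting cell comparisons share their libraries pairwise, so they are not separate evidence.

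The supporting lineage was not uniform, and the genes differed between its subclusters. Reclustering, with the 10 genes left out of the genes used, gave 5 subclusters. Subcluster 0 was granulosa-like (29 dKO XY and 2236 control XX cells). Subcluster 1 (73 dKO XY and 1429 control XX cells) stayed unnamed. It passed 2 granulosa and 0 Sertoli markers, where a name needed 3 of a list. Of all lists, the interstitial list led there, which played no part in the naming. Subclusters 2 and 4, Sertoli-like, held 599 control XY and 1099 dKO XY cells, with subcluster 4 cycling and germ cell genes *Dppa5a* and *Dppa3* leading subcluster 2. Subcluster 3 also stayed unnamed and was mostly dKO XY (871 of its 929 cells). It passed 1 granulosa and 0 Sertoli markers. Of all lists, the Leydig list led there, measured against the other supporting cells, and it played no part in the naming. In the first clustering, of all cell types, a cluster led by *Kctd14*, *Rhox8* and *Rspo1* was also mostly dKO XY (884 of its 924 cells). That cluster passed 4 of 8 granulosa markers and was named granulosa. It also held 34 control XY and 6 control XX cells, where subcluster 3 held 37 and 21. *Cpa1* was among the leading genes of both. How far the cells of that cluster are those of subcluster 3 was not tested. The levels below are descriptions.

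*Hes1* was high in the subclusters of control XX cells and low in the Sertoli-like subclusters. In subcluster 1 and in Sertoli-like cells the dKO XY libraries overlapped those of the control. Subclusters group cells by expression, so some likeness within them is built in. In subcluster 1, *Hes1* was at 176 and 160 CPM for dKO XY and at 175 and 220 for control XX. In Sertoli-like cells it was at 57.1 and 44.6 CPM for dKO XY and 45.6 and 50 for control XY, which overlapped. Subcluster 3 was between them, at 117 and 136 CPM for dKO XY. *Heyl* in dKO XY was at 32.1 and 33.9 CPM in subcluster 3, at 2.76 and 5.88 in subcluster 1 and at 3.81 and 4.74 in subcluster 2. *Jag1* for dKO XY was at 19.9 and 14.4 CPM in subcluster 3 and at 10.5 and 9.3 in subcluster 2. *Hey1* for dKO XY was highest in subcluster 1, 24.9 and 16.2 CPM from 55 and 18 cells, where control XX stood at 5.77 and 8.89. The 37 control XY cells of subcluster 3 are too few for a firm level: *Heyl* read 41.8 and 135 CPM there.

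**Figure D3:**
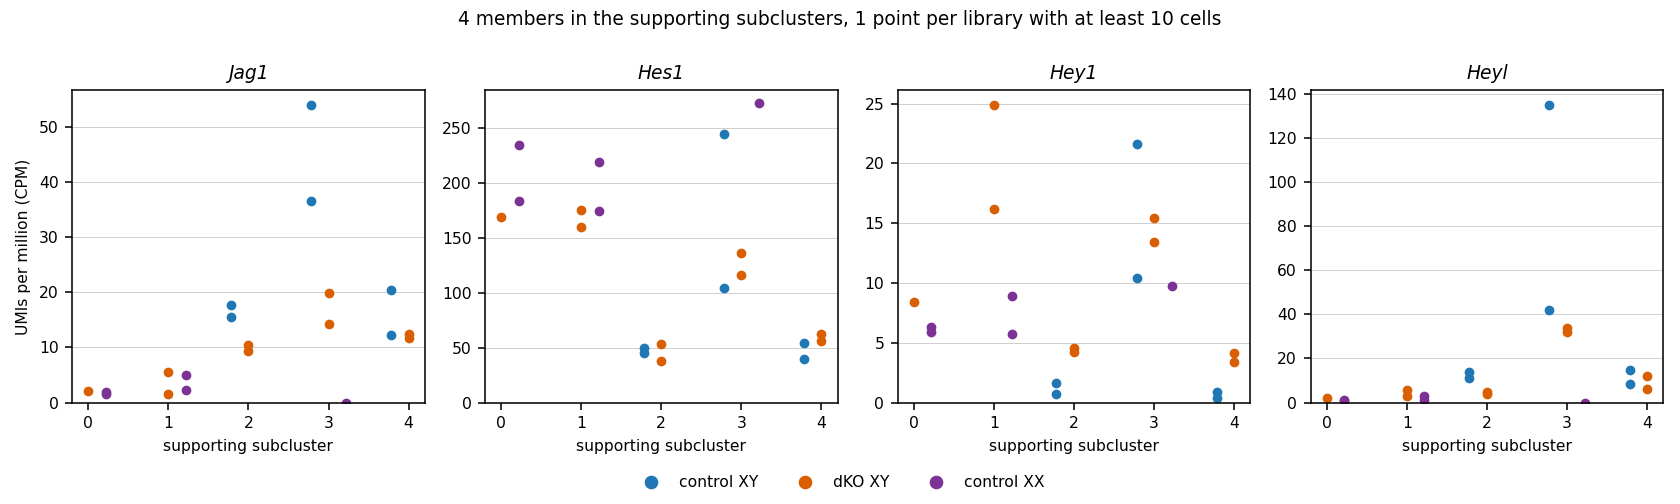
Level of *Jag1*, *Hes1*, *Hey1* and *Heyl* in CPM (y axis, linear) in the 5 supporting subclusters (x axis), with a point per library of at least 10 cells. In subclusters 2 and 4, the Sertoli-like cells, the dKO XY points of *Hey1* lie above the control XY points, while *Hes1* lies near 50 CPM in both groups.

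Within Sertoli-like cells, 2 of 9 genes were called between dKO XY and control XY, where 14.7% of all genes were (8.63% higher, 6.03% lower for dKO XY). *Hey1* stood at 1.16 and 0.816 CPM for control XY (7 and 10 UMIs) and at 4.1 and 4.16 CPM for dKO XY (87 and 72 UMIs), higher by 2.08 on the log2 scale (SE 0.37, adjusted p = 0.00341). *Heyl* went from 14.3 and 9.72 CPM to 4.81 and 7.52 CPM (log2 fold change -0.98, SE 0.28, adjusted p = 0.0397). The groups did not overlap for either gene, and the fitted fold changes of the 2 related targets had opposite signs. Without control XY 2 *Hey1* had adjusted p = 0.0516, without control XY 1 *Heyl* was at -0.70 (adjusted p = 0.201), and without dKO XY 1 *Heyl* was at -0.66 (adjusted p = 0.0857). The interstitial list in these sums was at 232 and 352 CPM for control XY and 219 and 194 for dKO XY, and the germ cell list at 99.9 and 26.9 CPM and 241 and 342 CPM. The pericyte list was at 52.1 and 56.7 CPM for control XY and 33.1 and 37.2 for dKO XY Sertoli-like sums. Their part in the 2 differences was not tested. *Jag1*, 18.7 and 13.8 CPM for control XY and 11.3 and 10.2 for dKO XY, was not called (-0.62, adjusted p = 0.0638).

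Interstitial cells, the stromal progenitors between the cords, gave 5 called genes of 10 between control XX and control XY, where 24.8% of all genes were called (12% higher, 12.8% lower for control XX). *Heyl* read 90.1 and 94.8 CPM for control XY, 55.7 and 81.6 for dKO XY and 10.2 and 9.66 for control XX (log2 fold change of control XX -3.16, SE 0.17, adjusted p = 1.07e-05). *Jag1* read 39.9 and 37.9 CPM for control XY, 40 and 41 for dKO XY and 9.12 and 13.2 for control XX (-1.71, SE 0.18, adjusted p = 0.000332). The 4 XY libraries lay within a few CPM of each other for *Jag1* and control XX lay well below. The pericyte list in interstitial sums was at 139.9 and 154.6 CPM for control XY, 120 and 181 for dKO XY and 89.4 and 89.5 for control XX, and its part in these differences was not tested.

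*Notch1*, at 28.2 and 33.1 CPM for control XY and 15.3 and 13.6 for control XX, was lower in control XX by -1.02 (SE 0.21, adjusted p = 0.00923). *Notch3*, at 45.4 and 52.6 CPM for control XY and 26.5 and 21.7 for control XX, was lower by -0.97 (SE 0.20, adjusted p = 0.00871). *Hey1* was higher in control XX, 12.7 and 15.47 CPM against 10.9 and 9.48 CPM (0.54, SE 0.15, adjusted p = 0.0368). Its call was lost without control XY 1 (adjusted p = 0.0678), control XY 2 (0.215) or control XX 2 (0.207), and without control XX 2 those of *Notch1* (-0.99, adjusted p = 0.0666) and *Notch3* (-0.87, adjusted p = 0.0686) were lost as well.

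The interstitial cells of the groups came from different clusters. Control XX had 4483 of its 4495 interstitial cells in a cluster led by *Lum*, *Il33* and *Gdf10*, where control XY had 488 of 11414. Within that cluster *Heyl* was at 15.2 and 11.8 CPM for control XY and 10.2 and 9.62 for control XX (-0.41, adjusted p = 0.281), and *Notch3* at 33.3 and 34.6 CPM and 26.6 and 21.7 CPM (-0.46, adjusted p = 0.171), so neither call held. *Jag1* there was at 29 and 20.8 CPM for control XY and 9.04 and 13.2 for control XX. *Hes1*, not called over all interstitial cells, was at 68.9 and 64.9 CPM for control XY, 118 and 104 for dKO XY and 103 and 200 for control XX of that cluster (control XX higher by 1.23, adjusted p = 0.0117). In the largest cluster, led by *Sostdc1*, *Cxcl12* and *Inhba*, *Heyl* stood at 94.8 and 99.1 CPM for control XY and 65.5 and 99.1 for dKO XY.

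Between dKO XY and control XY interstitial cells no gene of the 10 was called by edgeR (6.45% of all genes were, 3.89% higher and 2.57% lower), with 2 at an unadjusted p under 0.05 and 0 called by DESeq2. The 2 at an unadjusted p under 0.05 were *Jag2* (1.10, adjusted p = 0.124) and *Heyl* (-0.44, adjusted p = 0.151). The 6.45% is for adjusted p, and the share of all genes at that unadjusted p was not taken. The *Heyl* libraries of these groups did not overlap. *Hes1* stood at 185 and 172 CPM for control XY and 176 and 151 for dKO XY, and *Notch3* at 45.4 and 52.6 against 36.2 and 57.8, and both overlapped. The effect of the dKO differed between supporting and interstitial cells for 3 of 10 genes in a test of the difference itself, where 19.8% of all genes did (8.24% relatively higher and 11.6% relatively lower in supporting cells). *Hey1* was relatively higher in supporting cells by 1.46 (SE 0.22, adjusted p = 0.00121), *Jag1* relatively lower by -0.71 (SE 0.13, adjusted p = 0.00385), and *Notch2* relatively lower by -0.31 (SE 0.09, adjusted p = 0.0299). *Notch2* read 95.6 and 78.5 CPM for control XY supporting cells and 68.7 and 57.4 for dKO XY, and 119 and 103 against 99.1 and 95.2 in interstitial cells. In supporting cells low in *Tcf21* and *Sycp3* the difference of *Notch2* was not called (-0.26, adjusted p = 0.0707), *Jag1* stood at -0.51 and *Hey1* at 2.56. Leaving out any 1 library also took the call of *Notch2* away (adjusted p = 0.0505 to 0.290), as did scaling by total UMIs (adjusted p = 0.122).

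Leydig cells, present in the XY groups only, had no gene of 9 called by edgeR between dKO XY and control XY (9.08% of all genes were, 5.82% higher and 3.25% lower), with 3 at an unadjusted p under 0.05 and 1 called by DESeq2. The 9.08% is for adjusted p, and the share of all genes at that unadjusted p was not taken. *Hes1* read 21.5 and 24.2 CPM for control XY and 35 and 28.2 for dKO XY (0.44, SE 0.13, adjusted p = 0.0824). *Jag1* read 92.7 and 93.2 CPM and 78 and 82.6 CPM. Neither gene's groups overlapped.

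Pericytes of dKO XY had no gene of 8 called against control XY by edgeR (0.284% of all genes were, 0.158% higher and 0.125% lower), with 2 at an unadjusted p under 0.05 and 0 called by DESeq2. The 0.284% is for adjusted p, and the share of all genes at that unadjusted p was not taken. *Jag1* was at 256 and 284 CPM for control XY and 203 and 186 for dKO XY. In pericytes of the controls, 3 of 8 were called, all lower in control XX, where 7.67% of all genes were (2.79% higher, 4.88% lower for control XX). *Jag1* was at 75.5 and 116 CPM for control XX pericytes (-1.39, SE 0.19, adjusted p = 0.000274). *Heyl* went from 310 and 354 CPM to 170 and 137 (-1.07, SE 0.16, adjusted p = 0.000758), and *Notch3* from 213 and 241 CPM to 160 and 124 (-0.64, SE 0.16, adjusted p = 0.0209). The call of *Notch3* was lost without control XY 1 (-0.72, adjusted p = 0.0650), control XY 2 (-0.56, adjusted p = 0.227) or control XX 2 (-0.50, adjusted p = 0.194). The pericyte list summed to 1961 and 1959 CPM for control XY, 1438 and 1761 for dKO XY and 1841 and 1548 for control XX pericytes, and the interstitial list to 4124 and 4412, 3587 and 4091, and 2784 and 2666 CPM. Their part in these differences was not tested.

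Endothelial cells gave no called gene of 10 between dKO XY and control XY by edgeR (0.515% of all genes were, 0.216% higher and 0.299% lower), with 4 at an unadjusted p under 0.05 and 0 called by DESeq2. The 0.515% is for adjusted p, and the share of all genes at that unadjusted p was not taken. Between control XX and control XY 2 of 10 were called, where 4.51% of all genes were (1.65% higher, 2.87% lower for control XX). Both are low genes there. *Heyl* was at 14.7 and 19.2 CPM for control XY (55 and 132 UMIs) and 0.725 and 5.49 CPM for control XX (6 and 28 UMIs), and *Notch3* at 11 and 9.45 CPM and 1.57 and 4.12 CPM (log2 fold changes -2.61, SE 0.53, adjusted p = 0.0167, and -1.89, SE 0.40, adjusted p = 0.0186). Neither was called without control XY 2 (-2.35, adjusted p = 0.158, and -1.98, adjusted p = 0.102) or without control XX 1 (-1.56, adjusted p = 0.0546, and -1.21, adjusted p = 0.136), and *Notch3* was not called without control XY 1 (-1.79, adjusted p = 0.0719). The interstitial list in endothelial sums was at 675 and 973 CPM for control XY and 281 and 462 for control XX, and the pericyte list at 205 and 205 CPM and 148 and 155 CPM. Their part was not tested.

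**Figure D4:**
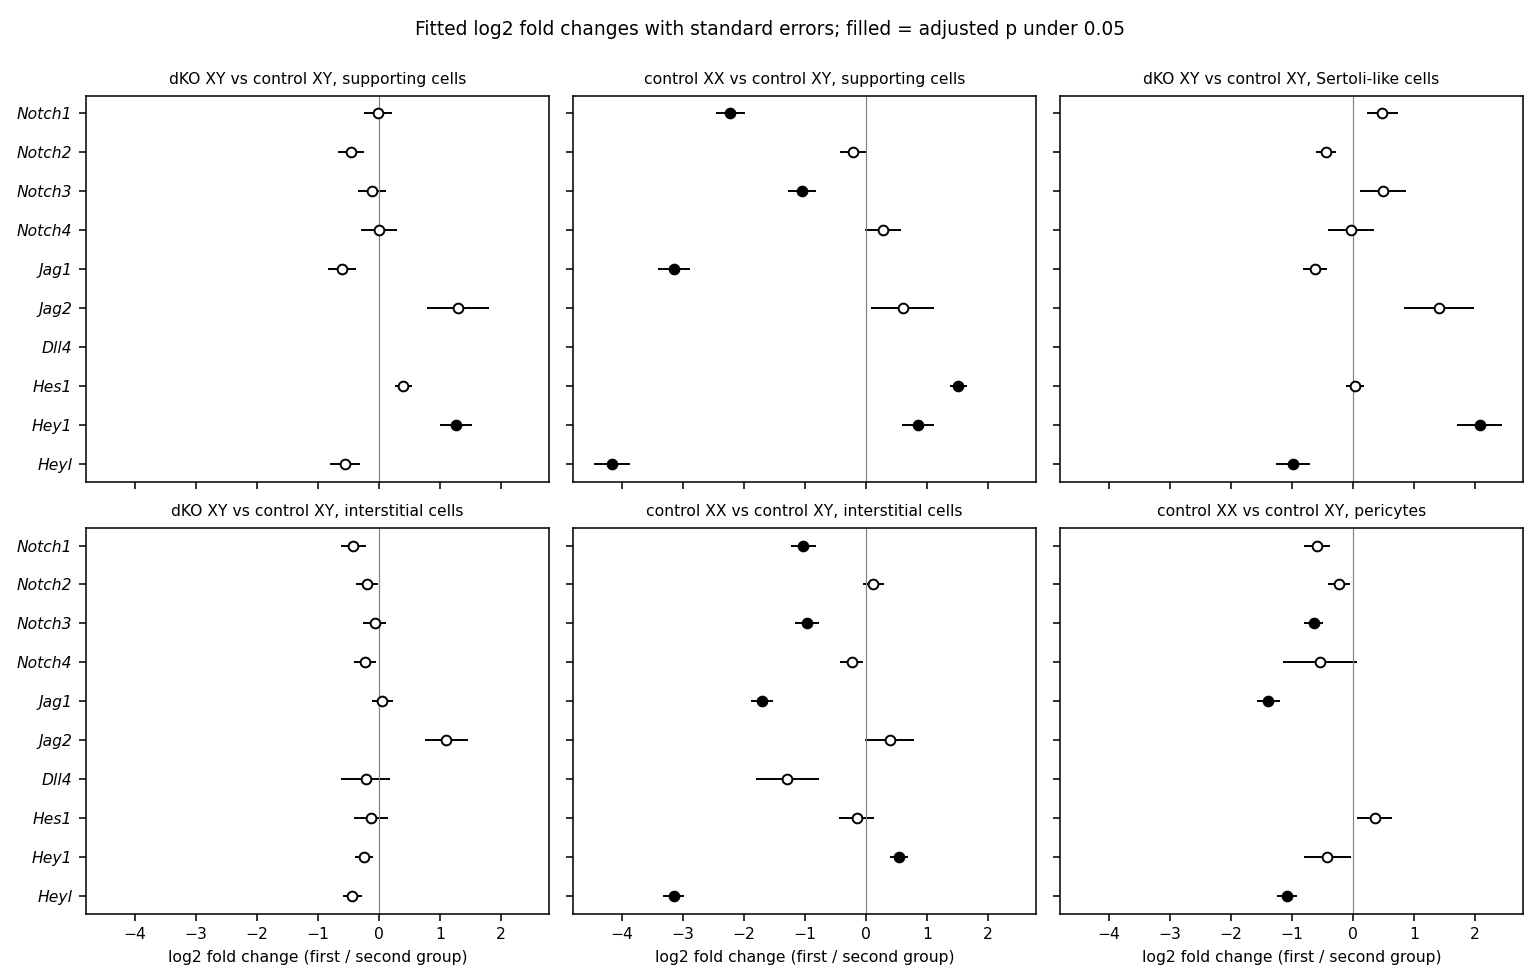
Log2 fold change (x axis) of each gene (y axis) in 6 comparisons, with bars of 1 SE, and filled points where the adjusted p is under 0.05. *Heyl* and *Jag1* lie furthest to the left in control XX against control XY supporting cells, at -4.17 and -3.16, and *Hey1* is the filled point of dKO XY against control XY supporting cells, at 1.26.

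Germ cells were compared between dKO XY and control XX only, since control XY held 15 and 7 of them. Of 9 genes, 4 were higher in dKO XY and called, where 49.8% of all genes were called (24.9% higher, 24.9% lower for dKO XY). *Heyl* rested on 104 and 34 UMIs for dKO XY and on 1 and 6 for control XX (6.75 and 3.37 CPM against 0.103 and 0.771 CPM, adjusted p = 1.39e-07). *Notch3* was at 8.96 and 8.81 CPM for dKO XY and 1.14 and 2.31 for control XX (2.46, SE 0.35, adjusted p = 6.99e-08), *Hey1* at 7.14 and 6.24 CPM and 1.24 and 1.54 CPM (2.34, SE 0.38, adjusted p = 1e-06), and *Hes1* at 31.9 and 28.9 CPM and 15.6 and 18.8 CPM (0.89, SE 0.21, adjusted p = 0.000468). The dKO XY germ cell sums also held more of the Leydig list, 294 and 214 CPM against 8.6 and 8.2 CPM, and of the Sertoli list, 144 and 188 CPM against 64.1 and 73.1 CPM. The part of these transcripts in the 4 differences was not tested. The pericyte and interstitial lists are not given here for germ cell sums. These 2 groups differ in sex as well as in the dKO, which cannot be told apart here. The paper reports meiotic germ cells in control ovaries and at the poles of dKO XY gonads, but not in the central cords. The part of meiosis was not tested either.

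The wider pathway was described with a list of 46 other genes. In supporting cells 43 were tested, of which 12 were higher and 10 lower in control XX than in control XY, near the shares of all genes, 25.2% and 23.7%. The protease group that cuts the receptors had 4 of 9 higher, the 2 other canonical ligands, *Dll1* and *Dll3*, were both higher, and the other Hes and Hey genes had 1 higher and 2 lower of 4. These groups are too small to set against the 25.2% and 23.7% of all genes.

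*Hes5*, a target that encodes a repressor like *Hes1*, nearly disappeared from control XX sums, with 19.1 and 16.5 CPM for control XY, 9.05 and 5.46 for dKO XY and 0.29 and 0.13 for control XX (25 and 4 UMIs). Its log2 fold change was -6.23 for control XX (SE 0.36, adjusted p = 6.67e-07) and -1.28 for dKO XY (SE 0.26, adjusted p = 0.00828). *Lfng*, the Fringe glycosyltransferase that alters which ligand a receptor answers to, read 13.9 and 11.5 CPM, 13.4 and 7.93 CPM and 0.50 and 0.66 CPM in the same order (control XX -4.55, SE 0.32, adjusted p = 2.2e-06). *Nrarp*, a feedback inhibitor, read 9.01 and 9.73 CPM, 6.04 and 4.82 CPM and 0.28 and 0.56 CPM (control XX -4.70, SE 0.32, adjusted p = 2.02e-06). *Dtx4*, a Deltex ubiquitin ligase, read 22.3 and 23.9 CPM, 19.2 and 19.9 CPM and 2 and 1.48 CPM (control XX -3.73, SE 0.18, adjusted p = 2.62e-07). Control XX lay well below both XY groups for each of these genes. *Adam10*, the protease of the first cut, went the other way, from 59.9 and 65.1 CPM for control XY to 104 and 110 for dKO XY and 176 and 153 for control XX, and was called against control XY in control XX (1.35, adjusted p = 1.88e-05) and in dKO XY (0.78, adjusted p = 0.00277).

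RefSeq promoter windows (GRCm38.p6, 250 bases before the RefSeq start, which can differ from the GENCODE start) were searched for TGGGAA, the core of the letters RBPJ binds, on both strands. None of the 7 members with a window held it, and no window was given for *Hes1*, *Hey1* and *Heyl*. The windows of *Notch1*, *Notch2*, *Notch4*, *Jag1*, *Jag2* and *Hey2* overlap an exon of the gene in GENCODE. That of *Notch1* (chr2:26503823-26504072) lies inside the gene span given above. Over all genes 7094 of 32851 windows, 21.6%, held it. Of 5 pathway genes with large sex differences and a window, 3 held it: *Hes5* and *Lfng* 2 matches each and *Hey2* 1 match, while *Nrarp* and *Dner* held none. These genes were picked after their values were seen, *Hey2* outside the naming rule for control XX. They are too few to set against the 21.6%. *Hes5* and *Lfng* are shown for their matches, and *Notch3* as a receptor without a match. The match is capitalised, TGGGAA or its reverse complement TTCCCA. Exon bases were left out of the *Lfng* window.
*Hes5*, chr4:154960673-154960922, plus strand: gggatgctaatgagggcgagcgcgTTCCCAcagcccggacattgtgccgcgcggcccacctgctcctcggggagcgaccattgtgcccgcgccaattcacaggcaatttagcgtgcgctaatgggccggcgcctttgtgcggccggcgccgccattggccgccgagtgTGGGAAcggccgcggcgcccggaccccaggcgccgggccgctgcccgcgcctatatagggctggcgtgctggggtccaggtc
*Lfng*, chr5:140607091-140607319, plus strand: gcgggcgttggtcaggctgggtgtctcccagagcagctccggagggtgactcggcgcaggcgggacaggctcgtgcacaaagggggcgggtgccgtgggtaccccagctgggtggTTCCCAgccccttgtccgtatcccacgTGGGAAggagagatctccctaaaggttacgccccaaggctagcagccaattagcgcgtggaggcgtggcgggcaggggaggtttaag
*Notch3*, chr17:32166891-32167140, minus strand: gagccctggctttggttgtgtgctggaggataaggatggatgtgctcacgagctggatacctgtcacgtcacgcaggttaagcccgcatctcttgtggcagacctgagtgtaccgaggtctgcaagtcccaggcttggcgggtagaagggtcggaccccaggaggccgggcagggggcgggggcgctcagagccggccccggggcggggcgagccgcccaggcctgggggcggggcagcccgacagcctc
A match is a description of letters and not a binding site.

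In dKO XY supporting cells 4 of the 43 were higher and 3 lower than in control XY, near the shares of all genes, 9.89% and 6.83%. Besides *Adam10*, the gamma-secretase subunit gene *Aph1b* was higher, 6.21 and 6.23 CPM for control XY, 12.5 and 15.6 for dKO XY and 15.8 and 16 for control XX (1.18, SE 0.18, adjusted p = 0.00178). *Dll3*, a ligand that inhibits receptors of its own cell, went from 2.19 and 2.16 CPM to 5.06 and 6.41 CPM (1.41, SE 0.27, adjusted p = 0.00611). *Dll1*, a canonical ligand, was called too, with 2 and 7 UMIs for control XY and 52 and 40 for dKO XY (0.24 and 0.45 CPM against 1.38 and 1.12 CPM, 1.76, adjusted p = 0.0306), and is named although it ranked past the 6 that the naming rule takes. *Dner*, a non-canonical ligand, had 10 and 27 UMIs for control XY, 10 and 8 for dKO XY and 3 and 0 for control XX (adjusted p = 0.00731 for dKO XY and 6.47e-05 for control XX). *Dlk1*, a non-canonical ligand of progenitor cells, read 235 and 189 CPM for control XY and 59.3 and 43.9 for dKO XY (-2.03, SE 0.47, adjusted p = 0.0153). Its interstitial level was 1386 and 1136 CPM for control XY and 570 and 483 for dKO XY, and in supporting cells low in *Tcf21* and *Sycp3* it was 53.7 and 55.7 CPM against 34.2 and 32.4.

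Against control XX, 8 of the 43 were higher and 7 lower in dKO XY supporting cells, where 21.3% and 19.6% of all genes were. *Dtx4* (3.49), *Lfng* (4.32), *Hes5* (4.95), *Nrarp* (3.91) and *Hey2* (3.47) were higher on the log2 scale and *Dtx3* (-0.81) was lower.

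In Sertoli-like cells 42 were tested, with 4 higher and 4 lower in dKO XY, where 8.63% and 6.03% of all genes were. *Aph1b* (1.61, SE 0.21, adjusted p = 0.00049), *Adam10* (0.64, SE 0.13, adjusted p = 0.00632), *Dll3* (1.49, SE 0.30, adjusted p = 0.00641) and *Dll1* (2.47, SE 0.55, adjusted p = 0.0118) were higher. *Maml3*, a coactivator, was lower (-0.74, SE 0.15, adjusted p = 0.00748). *Dner* was lower on few UMIs, 8 and 17 for control XY and 3 and 6 for dKO XY (adjusted p = 0.0118). The others that were lower, past the 6 of the naming rule, were *Dlk1* (-0.53, adjusted p = 0.0203) and *Hes5* (-0.84, adjusted p = 0.0228). *Lfng* overlapped between the groups there, at 16.9 and 13.3 CPM for control XY and 20.4 and 13.2 for dKO XY.

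**Figure D5:**
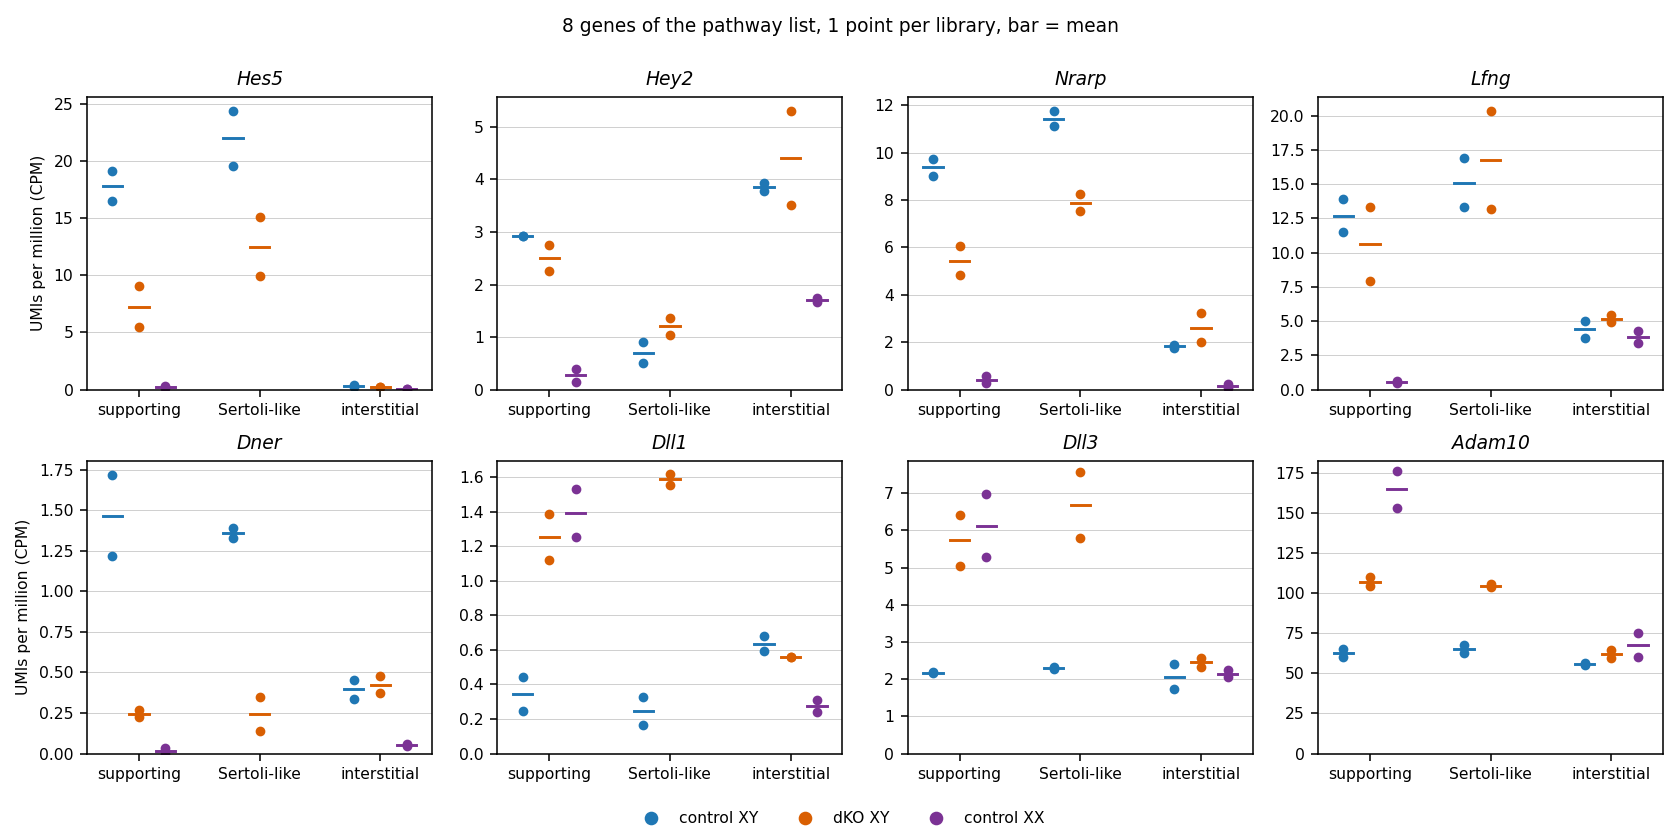
Level of 8 genes of the wider pathway in CPM (y axis, linear, each panel on its own scale) in supporting, Sertoli-like and interstitial sums (x axis), with a point per library and a bar at each mean. The supporting points of *Hes5*, *Nrarp* and *Lfng* fall to under 1 CPM for control XX, and those of *Adam10* lie highest there, at 176 and 153 CPM.

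In interstitial cells 44 were tested, with 4 higher and 9 lower in control XX (12% and 12.8% of all genes were) and 0 higher and 2 lower in dKO XY (3.89% and 2.57%). *Dtx4* went from 50.9 and 54.9 CPM for control XY to 4.29 and 4.01 for control XX (-3.61, SE 0.15, adjusted p = 3.28e-06), and stood at 33.6 and 44.9 CPM for dKO XY. *Numb*, an inhibitor of Notch inherited unequally at some divisions, was higher in control XX, 73 and 74.5 CPM against 35.3 and 34.3 CPM (1.15, SE 0.09, adjusted p = 8.53e-05). *Dtx1* (-1.97), *Nrarp* (-3.24) and *Dner* (adjusted p = 0.0033) were lower and *Maml3* (0.77) higher in control XX. *Dlk1* (-1.26, SE 0.29, adjusted p = 0.0425) and *Numbl* (-0.54, SE 0.09, adjusted p = 0.0132) were lower in dKO XY. *Dlk1* was lower in Leydig cells of dKO XY as well, 108 and 82.6 CPM against 185 and 150 CPM (-0.84, SE 0.16, adjusted p = 0.0187), as was *Fbxw7* (-0.46, SE 0.10, adjusted p = 0.0329), with 2 of 42 lower and 0 higher where 3.25% and 5.82% of all genes were. In pericytes of control XX 2 of 38 were lower, where 4.88% of all genes were, *Dtx4* (-3.91, SE 0.44, adjusted p = 5.04e-05) and *Dtx1* (-1.98, SE 0.56, adjusted p = 0.0436), and in endothelial cells 1 of 40 was higher, where 1.65% of all genes were, *Hes6* (0.68, SE 0.17, adjusted p = 0.0397). In germ cells 6 of 44 were higher and 12 lower in dKO XY than in control XX, where 24.9% of all genes were each way. *Poglut1* (1.48) was higher, and *Aph1b* (-2.46), *Fbxw7* (-1.05), *Hes6* (adjusted p = 3.13e-05), *Adam10* (-0.91) and *Rbpj* (-0.83) were lower. The dKO effect differed between supporting and interstitial cells for 10 of 44 genes, 5 relatively higher and 5 relatively lower in supporting cells, where 8.24% and 11.6% of all genes did. *Aph1b* (1.51) and *Adam10* (0.58) were relatively higher, and *Maml3* (-0.65), *Dner* (-2.79), *Fbxw7* (-0.45) and *Nrarp* (-1.31) relatively lower.

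Over 48 sums of a cell type in a library, which share libraries and depths, the genes with the most similar log2(CPM + 1) pattern were taken from the 9315 genes with a mean of at least 10 CPM over these sums, which leaves out members of lower mean as neighbours. Those nearest to *Dll4* were *Sox17* (r = 0.984), *Cyyr1* (r = 0.983) and *Bcl6b* (r = 0.982), and *Bcl6b* was also the nearest of them to *Notch4* (r = 0.944), with *Dll4*, under that mean, at r = 0.946. *Pdgfrb*, a receptor of pericytes, was nearest to both *Notch3* (r = 0.949) and *Heyl* (r = 0.923), and *Notch3* was the next nearest to *Heyl* (r = 0.911). The nearest gene was *Tmod3* for *Notch1* (r = 0.930), *Lrp1* for *Notch2* (r = 0.886), *Igfbp7* for *Jag1* (r = 0.918), *Rapgef5* for *Jag2* (r = 0.888) and *Ephb4* for *Hey1* (r = 0.871). *Hes1* had the weakest nearest gene, *Gpsm1* (r = 0.815). These values describe patterns across cell types.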

How the data were processed

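The authors dissociated gonads at E15.5, ran 10x Genomics capture and counted UMIs with Cell Ranger on mm10 after a correction for barcode swapping. The deposited matrices hold raw UMI counts per gene and barcode, 68064 barcodes in all. Barcodes with over 2500 and under 9000 genes, under 25% mitochondrial and under 20% *Hbb* UMIs were kept, as the methods describe, which left 39350 cells, the number the study gives. Cells were clustered with Seurat 5.3.0 (20 dimensions, the 10 genes and 46 pathway genes left out) into 13 clusters and named from marker lists. Supporting cells low in *Tcf21* and *Sycp3* were reclustered (8 dimensions). Counts were summed per library and cell type (at least 10 cells) and tested with edgeR 4.0.16 (filterByExpr, TMM, quasi-likelihood). The groups in a fit shared 1 spread. The Sertoli-like and Leydig fits held the XY groups only. The germ cell fit held control XY 1 but not control XY 2, which had under 10 cells. The difference between supporting and interstitial cells was fitted with library as a block. Tests were first checked on simulated data, where the share of false calls ran above the 0.05 threshold in most comparisons. Alternatives were DESeq2 1.42.0, total UMIs as library size, no filter, only the 2 groups compared, all variable genes for clustering, a replicate block, removal of cells with the highest doublet scores (top 8% by Scrublet, whose automatic threshold marked 0 to 71 cells per library), and leaving out each library. No doublets were removed otherwise. All members were named. Of the pathway list, up to 6 called genes with the lowest adjusted p per comparison were named. The members and lists were chosen with earlier results of these data known. Positions are from GENCODE M21.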

Additional observations from a re-analysis of the deposited data

Results flagged for a closer look

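The response to the loss of *Amh* and *Inhbb* differed between supporting and interstitial cells, by a test of the difference itself with library as a block, for 3 of the 10 genes, where 19.8% of all genes did. The log2 fold change of dKO XY against control XY in supporting cells minus that in interstitial cells was 1.46 for *Hey1*, -0.71 for *Jag1* and -0.31 for *Notch2*. The call of *Notch2* was lost on leaving out any 1 library and with total UMIs as library size. For *Hey1* both dKO XY libraries lay above both control XY libraries in supporting cells and below both in interstitial cells, where levels were 10.9 and 9.48 CPM for control XY and 9.04 and 8.19 for dKO XY. For *Jag1* the interstitial levels of the groups were within 4 CPM. Groups of 2 libraries were too small to test a library as an outlier.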

How the results depend on the processing

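Directions and calls were compared over the alternatives named above and over 2 kinds added after seeing the data (single interstitial clusters, and supporting cells low in *Tcf21* and *Sycp3*). The count of called members for dKO XY against control XY in supporting cells was 1 (2668 of 15958). Calls over all genes are in brackets, here and below in this paragraph. The count of members became 6 with no filter (3575 of 23076) and 2 with only the 2 groups fitted (2762 of 15005). It was 2 without the highest doublet scores (2803 of 15683) and 3 in cells low in *Tcf21* and *Sycp3* (3021 of 15648). In Sertoli-like cells it was 2 (2014 of 13740), and became 6 with no filter (2735 of 20817). In interstitial cells of dKO XY it was 0 (1086 of 16832), and 1 with no filter (1734 of 23778). In Leydig cells it was 0 (1342 of 14784), and became 1 by DESeq2 (1387 of 14784). It became 2 with no filter (2619 of 21735) and 2 without the highest doublet scores (1861 of 14312). In endothelial cells it was 0 for dKO XY (62 of 12035), and 3 with no filter (374 of 19221). For control XX it was 2 (543 of 12035), and 1 by DESeq2 (389 of 12035). It was 5 there with no filter (1098 of 19221) and 1 without the highest doublet scores (429 of 11526). The difference between supporting and interstitial cells had 3 called members (3437 of 17316), and 5 in cells low in *Tcf21* and *Sycp3* (4029 of 17272). The calls over all genes also changed with the setting, and on leaving out a library. The cause of these changes was not tested.

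In supporting cells low in *Tcf21* and *Sycp3*, *Notch3* turned to 0.14 (control XX), 0.98 (dKO XY) and 1.08 (difference from interstitial cells), and the difference of *Heyl* turned to 0.50. *Hes1* for control XX against control XY turned to 1.23 in the interstitial cluster led by *Lum*, *Il33* and *Gdf10*, where 4 of the members and 1545 of all 13363 genes were called. The largest interstitial cluster gave no control XX value, with 4 such cells.

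Leaving out each library in turn gave 0 to 2 called genes for dKO XY and 4 to 6 for control XX against control XY, and 4 to 6 for dKO XY against control XX, in supporting cells. It gave 1 to 5 in Sertoli-like, 0 to 2 (dKO XY) and 3 to 5 (control XX) in interstitial, 0 to 2 in Leydig, 0 to 1 and 0 to 3 in endothelial and 0 and 2 to 5 in pericyte sums, 4 to 5 in germ cells and 2 to 3 for the difference. The interstitial dKO XY count was 2 without dKO XY 2, and the pericyte control XX count 5 without control XX 1.

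Libraries were treated as sharing only a replicate number, since the labels do not say whether a number marks a litter or day. Deviations of same-numbered libraries correlated at -0.21 to 0.11 across the 4 cell types checked. Those of dKO XY and control XX were at -0.18 to -0.21 in each type, and what this stands for was not tested. With the replicate block the Sertoli-like count was 6 and the Leydig count 3, while calls over all genes went from 2014 to 2777 and from 1342 to 2852. *Hey1* for control XX interstitial cells (0.54, adjusted p = 0.0738) and *Notch3* for control XX pericytes (-0.64, adjusted p = 0.0625) were then not called.

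Control XY endothelial sums rested on 97 and 143 cells. Pericyte sums rested on 191 and 284 cells for control XY and on only 51 and 120 for control XX.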

Other observations

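The 8 immediate-early genes had their lowest sum in dKO XY 2 in every cell type with 10 or more cells in all libraries compared. In interstitial cells it was 10279 and 10063 CPM for control XY, 9671 and 3229 for dKO XY and 8265 and 9933 for control XX. *Hes1* in immune cells ranged from 7.23 CPM for control XX 1 to 250 for control XX 2. *Hey2*, a relative of *Hey1* that the naming rule did not take for control XX and that was chosen after its values were seen, was mainly in pericytes, at 43.4 and 70.7 CPM for control XY, 39.6 and 43 for dKO XY and 43.6 and 36.8 for control XX.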
